A study of Mus musculus with 36 samples.

Results

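The tumor necrosis factor (TNF) superfamily comprises the ligands related to TNF and the receptors that bind them. Its members were taken here as every gene in the table whose symbol starts with Tnfsf or Tnfrsf followed by a digit, together with Tnf, Lta, Ltb, Ltbr, Fas, Fasl, Cd27 and Cd40. That gave 38 of 18760 named genes, of which 14 encode ligands, 23 encode receptors and 1, Tnfsf13os, is an RNA antisense to Tnfsf13. Cd40lg and Cd70, which the same definition covers, had no row among the 18760 genes used and so were not analysed. Expression was read from bulk RNA sequencing of 36 libraries from wild-type C57BL/6 mice, matched for age and sex, that carried MC38 tumors (a mouse colon carcinoma line). The mice received a high dose of antibodies against PD-1 and CTLA-4, named ICB here for immune checkpoint blockade, or an IgG control. Each of 6 tissues, namely kidney, heart, liver, lung, skeletal muscle and the tumor, gave 3 ICB and 3 IgG libraries. No untreated and no tumor-free mice are among these groups, so IgG in tumor-bearing animals is the control throughout. The sources used here give no ages and do not tell if each library of a group is from a different animal. The p-values therefore reflect only how far these libraries scatter, part of which may be technical.

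TNF superfamily ligands are mostly trimeric proteins of the cell surface that can be shed, and their receptors carry cysteine-rich repeats outside the cell. Receptors with a cytoplasmic death domain, such as TNFR1 (Tnfrsf1a) and Fas, can assemble caspase-activating complexes, while many others recruit TRAF adaptor proteins and activate NF-kB. In the immune system several pairs act as costimulators of T cells, among them 4-1BB and its ligand (Tnfrsf9, Tnfsf9) and OX40 and its ligand (Tnfrsf4, Tnfsf4), and another group sustains B cells. Levels are given as FPKM, fragments per kilobase of gene scaled by the authors to library size, so genes can be compared with each other per length.

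The libraries held 19005189 to 25512980 reads. The markers of each organ stood out in that organ: the 7 kidney markers summed to 11550 to 18270 FPKM in kidney and to at most 42.3 in any other tissue, and the 6 liver markers to 64880 to 82590 in liver. In the tumor the 5 epithelial markers summed to 0.557 to 2.21 FPKM, against 506 to 843 in liver, so the tumor label is not backed by keratins or Epcam. One library, tumor ICB replicate 2, stood apart in holding 349 FPKM of the 6 skeletal muscle markers, where the other 5 tumor libraries held 3.94 to 15.6. In bulk tissue, fewer cells of a type and less RNA per cell cannot be told apart.

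Promoter sequences are shown for 3 members on which the results below turn, namely the TNFR2 gene Tnfrsf1b, the lymphotoxin beta gene Ltb and the 4-1BB gene Tnfrsf9. Each is the run of 250 bases upstream of a RefSeq transcription start in GRCm38.p6, written 5′ to 3′ on the strand of the gene. Capitals mark matches on either strand to the NF-kB consensus of 10 bases or to GAGGAAG, a purine-rich core that the myeloid factor PU.1 binds.
Tnfrsf1b (chr4:145246871-145247120, minus strand): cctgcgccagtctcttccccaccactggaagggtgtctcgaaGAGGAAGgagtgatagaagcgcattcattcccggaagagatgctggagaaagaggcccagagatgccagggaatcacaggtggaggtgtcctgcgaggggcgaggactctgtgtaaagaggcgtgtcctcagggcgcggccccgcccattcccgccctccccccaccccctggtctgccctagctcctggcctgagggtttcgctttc
Ltb (chr17:35194257-35194506, plus strand): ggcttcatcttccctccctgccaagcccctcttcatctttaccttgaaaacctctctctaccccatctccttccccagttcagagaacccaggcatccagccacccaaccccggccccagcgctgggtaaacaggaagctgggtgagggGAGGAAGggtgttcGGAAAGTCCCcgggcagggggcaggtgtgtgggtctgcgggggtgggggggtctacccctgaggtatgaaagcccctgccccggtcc
Tnfrsf9 (chr4:150927749-150927998, plus strand, the downstream of its 2 RefSeq starts): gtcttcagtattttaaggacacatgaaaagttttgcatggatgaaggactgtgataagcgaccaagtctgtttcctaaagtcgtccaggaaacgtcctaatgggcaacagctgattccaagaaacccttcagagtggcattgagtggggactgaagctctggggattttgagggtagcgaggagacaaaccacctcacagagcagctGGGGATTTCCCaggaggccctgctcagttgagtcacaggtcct
The Tnfrsf1b run holds 1 GAGGAAG, the Ltb run holds GAGGAAG and 1 NF-kB match, and the Tnfrsf9 run holds 3 NF-kB matches that overlap each other. The window of the upstream Tnfrsf9 start (chr4:150919905-150920154) holds neither motif. Of 33 promoter windows found for 29 members, 4 (12.1%) hold the NF-kB consensus and 4 (12.1%) hold GAGGAAG. Among all 32851 windows of this length the shares are 7.25% and 10.6%. These matches describe the letters only.

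Most members were scarce in most tissues. A gene was tested in a tissue where at least 3 of its 6 libraries reached 1 FPKM. By this measure 26 members passed in lung, 21 in tumor, 14 in skeletal muscle, 13 in liver, 13 in heart and 10 in kidney. Of 18760 named genes, 12747 passed in lung, 11398 in tumor, 11410 in skeletal muscle, 11257 in liver, 11476 in heart and 11901 in kidney. The 9 that passed in all 6 tissues were the receptors Tnfrsf1a, Tnfrsf1b, Fas, Ltbr, Tnfrsf12a, Tnfrsf14 and Tnfrsf21 and the ligands Tnfsf10 (TRAIL) and Tnfsf12 (TWEAK). A further 8 members passed in none: Tnfsf4, Tnfsf8, Tnfsf11, Tnfsf15, Lta, Fasl, Tnfrsf8 and Tnfrsf26. By mean level, 17 members were highest in lung, 14 in tumor, 3 in liver, 2 in kidney, 1 in skeletal muscle and 1 in heart. Counts by highest tissue, here and below, were not made for all genes and describe the members only.

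**Figure D1:**
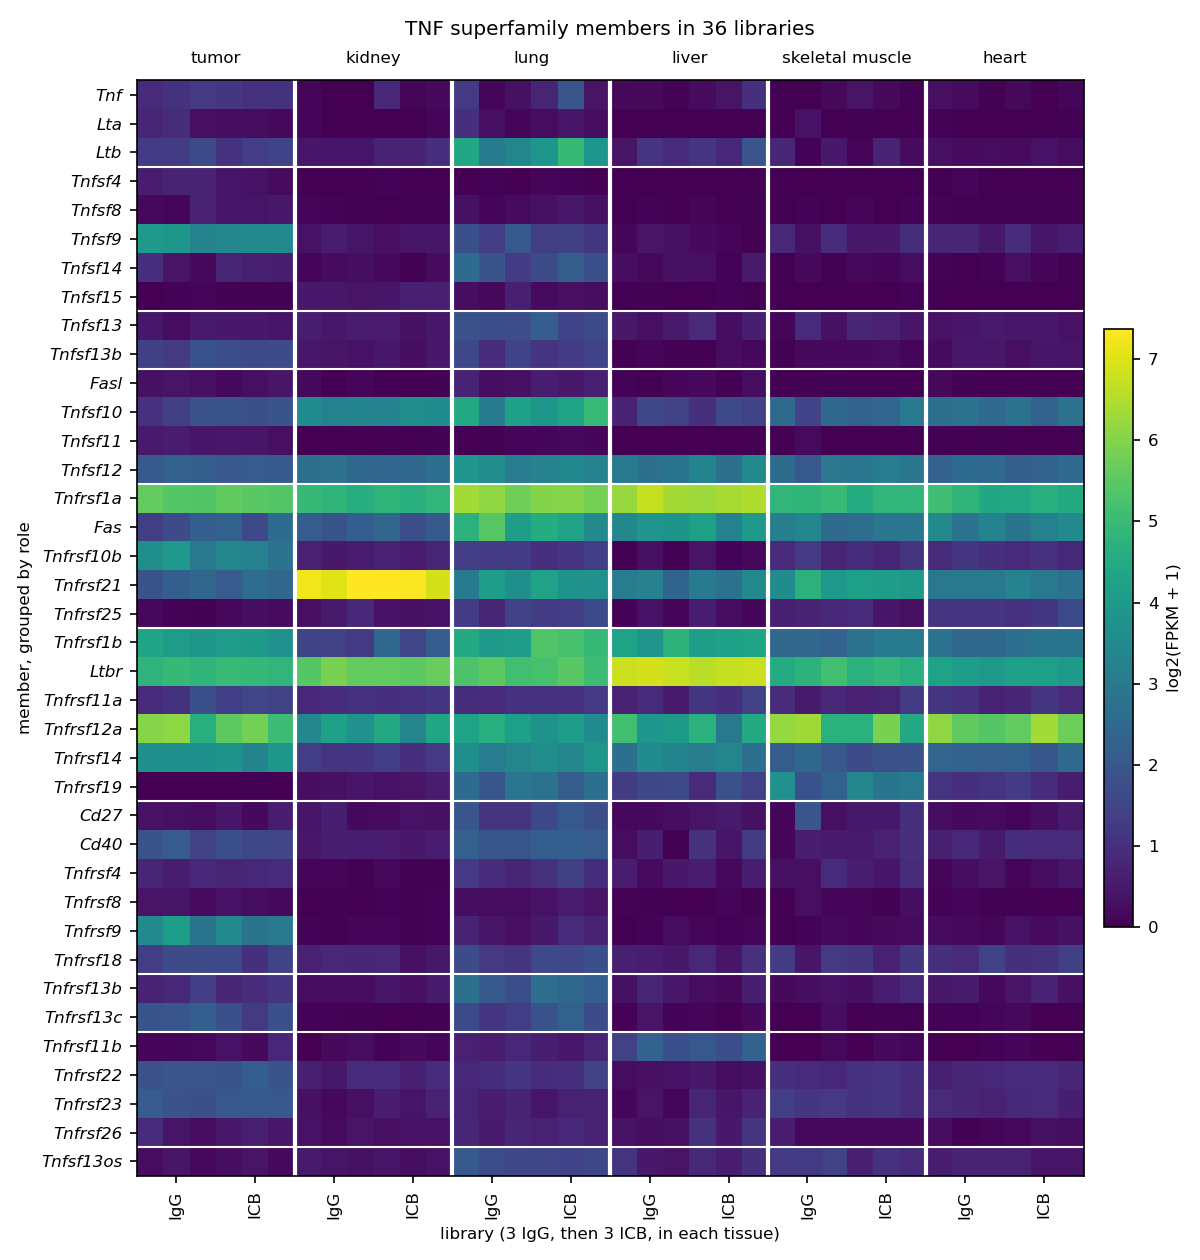
Log2(FPKM + 1) of the 38 members (rows, grouped by role) in the 36 libraries (columns, 3 IgG then 3 ICB in each tissue). Tnfrsf1a, Ltbr and Tnfrsf12a are bright in every tissue, Tnfrsf21 is brightest in kidney, and Tnfsf9 and Tnfrsf9 are bright in tumor.

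Each tissue was compared with the mean of the other 5 in a limma fit of all 36 libraries, over the 30 members that passed in at least 1 tissue. Of these, 15 were higher and 10 lower in tumor, beside 38.6% and 47.4% of all genes tested. Lung had 21 higher and 2 lower (all genes 34.1% and 45.9%). In kidney 3 were higher and 23 lower (33% and 44.4%), and in liver 7 and 17 (34% and 47.6%). Skeletal muscle had 4 higher and 17 lower (31% and 49.8%), and heart 2 and 24 (27.7% and 50.2%). A member that passed only through the tissue where it is high had to differ, so these counts are a description. Without the filter, over all 38 members, 21 were higher and 11 lower in tumor (all genes 37.3% and 46.3%). Lung had 27 and 3 (36.1% and 41.8%), and kidney 4 and 27 (30.8% and 43.3%). Liver had 8 and 23 (30.6% and 48.4%), skeletal muscle 4 and 23 (28.5% and 48.7%), and heart 2 and 32 (26.1% and 48.1%). The comparison of tissues depends on scaling, since the FPKM carry normalization factors of 0.532 to 0.645 in liver and 1.45 to 1.60 in lung. On a scale where every library sums to the same total, the median over all genes moved from -0.14 to 0.71 in tumor, from -0.13 to 0.52 in lung, from -0.16 to -0.76 in liver, from -0.20 to -0.51 in skeletal muscle and from -0.21 to -0.53 in heart (log2). The members then split 20 higher and 5 lower in tumor (all genes 61.69% and 29.07%) and 27 and 0 in lung (63.14% and 21.99%). Liver had 2 and 25 (13.09% and 78.86%), and skeletal muscle 1 and 24 (17.33% and 67.87%). Heart had 2 and 27 (15.8% and 70.65%), and kidney 3 and 25 (36.31% and 40.04%).

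The tumor was highest in both members of the 4-1BB pair. Tnfrsf9 encodes 4-1BB, a costimulatory receptor of activated lymphocytes, and its tumor levels were 10.1, 16.4 and 6.13 FPKM with IgG and 9.98, 6.13 and 6.85 with ICB. In lung, the next tissue, its 6 libraries lay between 0.224 and 0.840 FPKM, so that every tumor library was above every other library. Tumor exceeded the mean of the other 5 tissues by 3.06 ± 0.10 (SE) on the log2(FPKM + 1) scale, given as a description because the gene passed the filter in tumor alone. Its ligand gene Tnfsf9 stood at 11.3 ± 2.38 FPKM in tumor (SD, n = 6) and at 1.93 ± 0.684 in lung, a log2 difference from the other tissues of 2.91 ± 0.10 (SE). Tnfrsf10b, the mouse TRAIL death receptor, was at 9.52 ± 3.09 FPKM in tumor (SD, n = 6) and at 1.38 in lung. Its ligand gene Tnfsf10 went the other way, with 2.21 ± 0.708 FPKM in tumor against 18.3 ± 7.78 in lung (SD, n = 6 each). The decoy TRAIL receptor genes Tnfrsf22 and Tnfrsf23 were also above all other libraries in tumor, at 2.89 and 2.94 FPKM. The 11 T cell markers summed to 5.41 to 10.9 FPKM in tumor, below lung (13.6 to 43.6) and above the other 4 organs, whose highest library held 5.383. The 6 NK cell markers summed to 11.2 to 57.4 in tumor, 14.4 to 74.3 in lung and at most 3.23 elsewhere. Which cells the Tnfrsf9 reads came from was not tested.

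Lung was the highest tissue for 17 members, 5 of them with all 6 lung libraries above every other library. Ltb, which encodes the membrane anchor of the lymphotoxin heterotrimer, reached 20.5, 7.34 and 9.36 FPKM with IgG and 13.7, 29.9 and 13.7 with ICB, and its tumor mean was 1.58. All 6 lung libraries were above the other 30, and lung exceeded the other tissues by 3.19 ± 0.16 (SE, log2). Tnfrsf13b (TACI), a receptor for the B cell survival factors, was at 4.08 ± 1.24 FPKM in lung and 0.971 ± 0.351 in tumor (SD, n = 6 each). The ligand gene Tnfsf13 (APRIL) stood at 2.49 in lung and at most 0.473 on average elsewhere. Tnfsf14 (LIGHT), which binds HVEM and the lymphotoxin beta receptor, was at 2.91 in lung and 0.537 in tumor. The 9 B and plasma cell markers were also more abundant in lung, where they summed to 59.9 to 152 FPKM. Their sums were 15.0 to 60.4 in skeletal muscle, 9.70 to 14.1 in tumor and 3.06 to 3.88 in kidney. All tested T cell (10), NK cell (5), dendritic cell (4), neutrophil (6) and endothelial (6) markers were higher in lung too, beside 34.1% of all genes. The part of these cell types in these levels was not tested. Fas, the receptor for Fas ligand, was also highest in lung at 22.8 ± 11.3 FPKM, though its 6 libraries (10.8 to 43.3) overlapped those of liver (8.41 to 17.3).

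**Figure D2:**
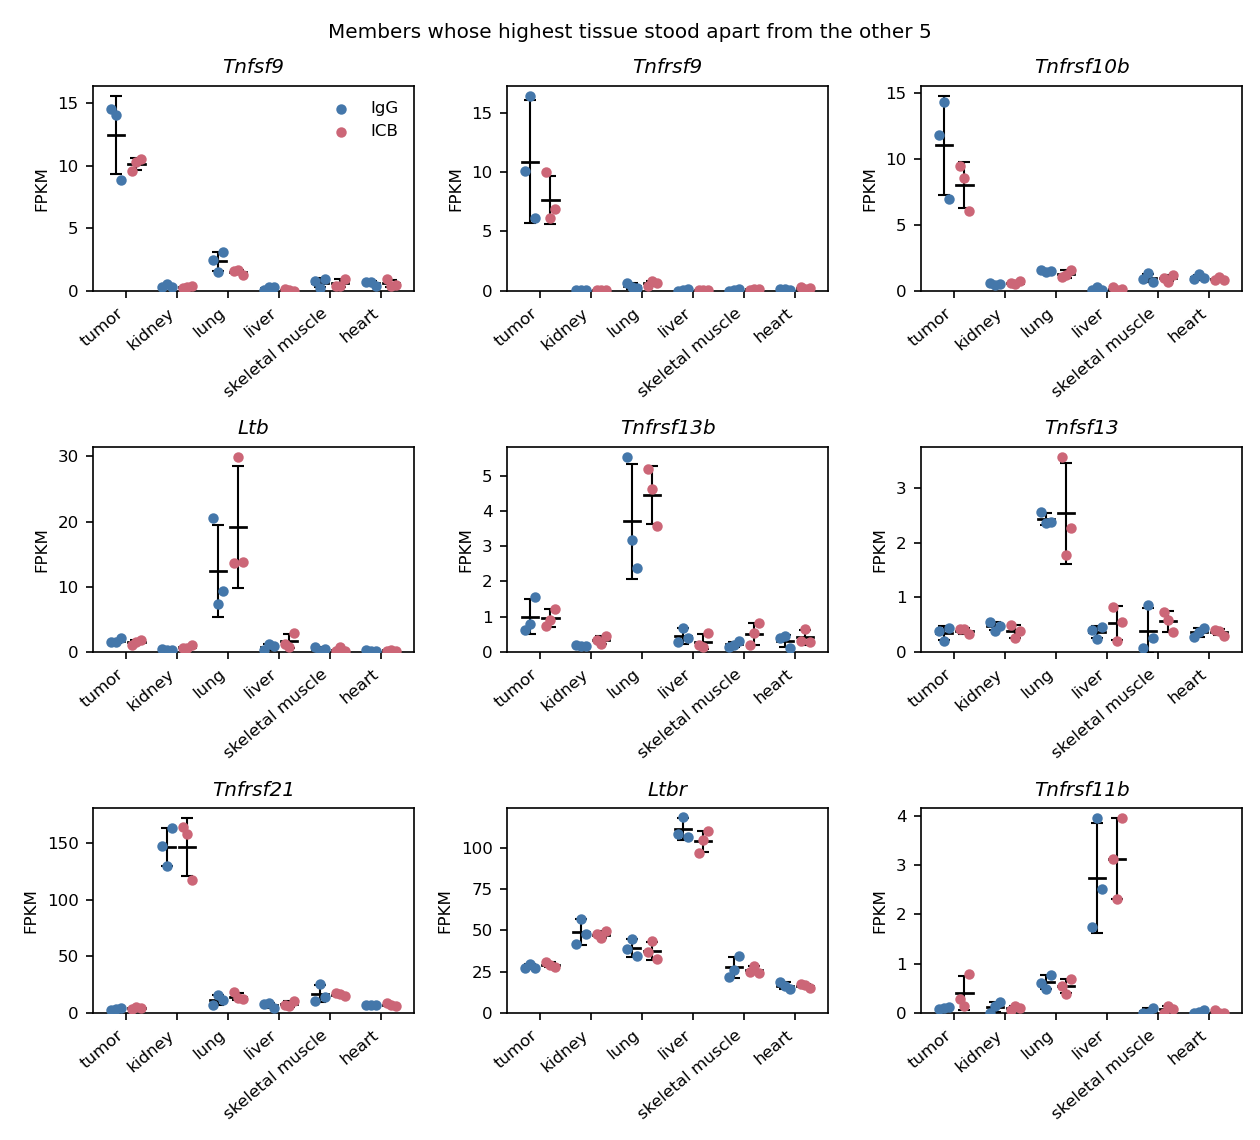
FPKM of 9 members by tissue, with points for libraries, blue for IgG and red for ICB, and black lines for the mean ± SD of 3 libraries. In each panel the 6 libraries of 1 tissue lie above the other 30: tumor in the first row, lung in the second, and kidney (Tnfrsf21) or liver (Ltbr, Tnfrsf11b) in the third.

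Tnfrsf21, the death-domain receptor DR6, ran from 117 to 165 FPKM in kidney and averaged 16.5 in skeletal muscle, the next tissue, and 3.94 in tumor. The kidney difference was 3.98 ± 0.15 on the log2 scale (SE). Ltbr, the lymphotoxin beta receptor, was at 108 ± 7.12 FPKM in liver and 48.2 ± 5.11 in kidney (SD, n = 6 each), and its lowest tissue was heart at 16.4. Tnfrsf11b, which encodes the soluble decoy osteoprotegerin, was at 2.94 ± 0.906 FPKM in liver and 0.580 or less on average elsewhere. Tnfrsf1a was highest in liver at 85.4 ± 10.8 FPKM, followed by lung at 64.6 ± 9.87, and the 2 tissues overlapped. Fn14 (Tnfrsf12a), the TWEAK receptor that rises in injured tissue, was highest in heart at 56.6 ± 15.2 FPKM, but tumor at 48.5 ± 18.0 and skeletal muscle at 46.9 ± 26.4 were within its spread (SD, n = 6 each). Tnfrsf19 (TROY) led in skeletal muscle at 7.02 ± 3.61 FPKM and was close to absent from tumor, where its 6 libraries held 0 to 5 reads.

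TNF itself was rare. Tnf reached 0.827 to 1.34 FPKM in tumor, or 45 to 85 reads a library. In lung it varied from 4 to 168 reads, with 1.35, 0.0852 and 0.266 FPKM under IgG and 0.700, 2.83 and 0.297 under ICB. The other 4 organs stayed under 1 FPKM in every library. Lymphotoxin alpha (Lta) was at 0 reads in all 6 liver libraries and at 5 to 45 in tumor, and Fasl held 9 to 23 in tumor. Among the costimulatory receptors of T cells, Tnfrsf4 (OX40) was at 1.10 ± 0.335 FPKM in lung and 0.724 ± 0.140 in tumor, and Tnfrsf18 (GITR) at 1.89 ± 0.519 and 1.83 ± 0.467 (SD, n = 6 each). Cd27 was above 1 FPKM in all 6 lung libraries. In skeletal muscle it ranged from 0.0671 to 2.83, with IgG replicate 2 at the top. That library also had the highest B and plasma cell sum of the 6, at 60.4 FPKM. ICB replicate 1 followed with a sum of 49.3, but its Cd27 was 0.398. The T cell sum of IgG replicate 2 was 0.899, where the 6 libraries held 0.729 to 3.975. Which cells these Cd27 reads came from was not tested. Cd40, which antigen-presenting cells use to receive T cell help, was at 3.37 ± 0.395 in lung and 2.38 ± 0.627 in tumor (SD, n = 6 each).

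Several members are neighbours in the genome (mm10, GENCODE M21), and neighbours differed in level. Ltb (chr17:35194439-35196320), Tnf (chr17:35199381-35202007) and Lta (chr17:35203165-35205351) adjoin each other, with lung means of 15.8, 0.921 and 0.347 FPKM. On chromosome 6, Cd27, Ltbr (chr6:125306571-125313885) and Tnfrsf1a (chr6:125349362-125362484) lie farther apart, with liver means of 0.247, 108 and 85.4. The decoy receptor genes Tnfrsf22 and Tnfrsf23 lie beside Tnfrsf26 on chromosome 7 and are near copies: their longest transcripts align over 2174 bases at 91.0% identity. Reads could be split between that pair, so their values are uncertain. Tnfsf13os shares 221 exon bases with Tnfsf13 on the opposite strand. Whether counting used strand is not stated, so reads in that stretch cannot be told apart. Exons of the readthrough gene Tnfsfm13 cover 983 of 1637 exon bases of Tnfsf13 and 731 of 1515 of Tnfsf12.

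With ICB against IgG, no member passed the test in any single tissue. The comparison used limma on log2(FPKM + 1) with 3 libraries a group and Benjamini-Hochberg adjustment over all genes tested. Among all genes, 0.0168% passed in kidney and 0% in each of the other 5 tissues, so the test called almost nothing of any kind. At an unadjusted p under 0.05 there were 3 of 26 members in lung (4.35% of all genes), 3 of 14 in skeletal muscle (5.33%), 1 of 10 in kidney (3.71%), 1 of 13 in liver (3.37%), 0 of 21 in tumor (6.87%) and 0 of 13 in heart (4.54%). Limma-voom on the recovered reads also called 0 members in each tissue. The 2 groups of libraries did not overlap for 4 members in lung (8.65% of all genes), 4 in skeletal muscle (11.6%), 1 in kidney (8.66%), 1 in liver (6.84%), 1 in tumor (13.1%) and 0 in heart (9.76%). The median difference over the tested members was 0.13 in lung and 0.10 in liver, beside -0.01 and -0.02 for all genes, and between -0.03 and 0.01 in the other 4 tissues (log2).

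**Figure D3:**
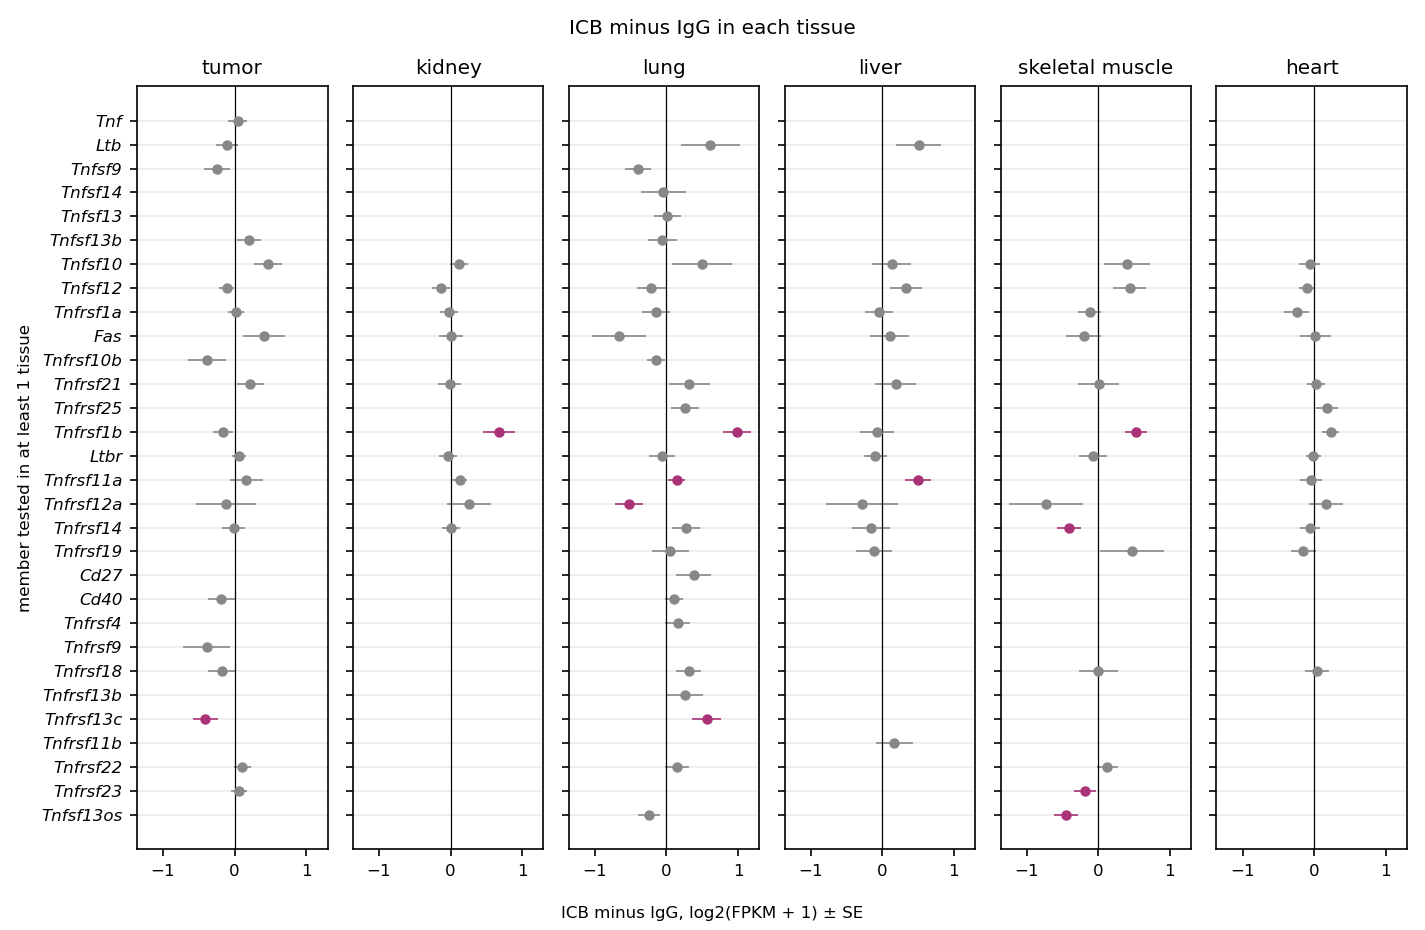
ICB minus IgG on the log2(FPKM + 1) scale with its SE, for each member tested in each tissue (rows are members, panels are tissues). Purple marks the member and tissue pairs whose 3 ICB and 3 IgG libraries do not overlap, and Tnfrsf1b is among them in kidney, lung and skeletal muscle.

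The TNFR2 gene Tnfrsf1b had separate groups in 3 of the 5 organs. TNFR2 binds TNF without a death domain and is known from myeloid cells, regulatory T cells and endothelium. Its lung levels were 21.6, 14.6 and 16.2 FPKM with IgG and 39.97, 36.4 and 29.6 with ICB. In kidney it read 1.84, 1.67 and 1.36 against 4.64, 1.91 and 3.43, and in skeletal muscle 4.62, 4.44 and 3.97 against 5.76, 7.15 and 7.21. In these 3 organs every ICB library was above every IgG library, narrowly so in kidney. Heart overlapped, with 5.99, 4.47 and 4.57 against 5.47, 6.29 and 6.28, and liver showed no shift upward, with 18.3, 13.2 and 25.96 against 16.1, 17.6 and 18.9. Tumor, outside the average, ran lower on the mean, at 16.2 ± 2.53 with IgG and 14.3 ± 1.76 with ICB (SD, n = 3 each), with overlap.

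Averaged over the 5 organs, Tnfrsf1b was higher with ICB by 0.47 ± 0.09 on the log2(FPKM + 1) scale (SE, limma adjusted p = 0.0189 in the fit of all 36 libraries, 0.0286 with the 30 organ libraries alone). It had the third-smallest p of the 8924 genes that pass in every organ, of which 0.202% were called higher and 0.0448% lower. The per-tissue differences were 0.98 ± 0.19 in lung, 0.67 ± 0.22 in kidney, 0.52 ± 0.15 in skeletal muscle, 0.23 ± 0.12 in heart and -0.08 ± 0.24 in liver (SE, limma adjusted p = 0.876 to 0.999). It was 1 of 9 members tested in the average. The call was lost when lung was left out of the average (0.34, limma adjusted p = 0.228), and likewise without kidney (0.42, limma adjusted p = 0.0825) or skeletal muscle (0.45, limma adjusted p = 0.0822). It was also lost without skeletal muscle ICB replicate 3 (0.46, limma adjusted p = 0.0501) and with the number in the sample titles as a replicate block (0.46, limma adjusted p = 0.0759).

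**Figure D4:**
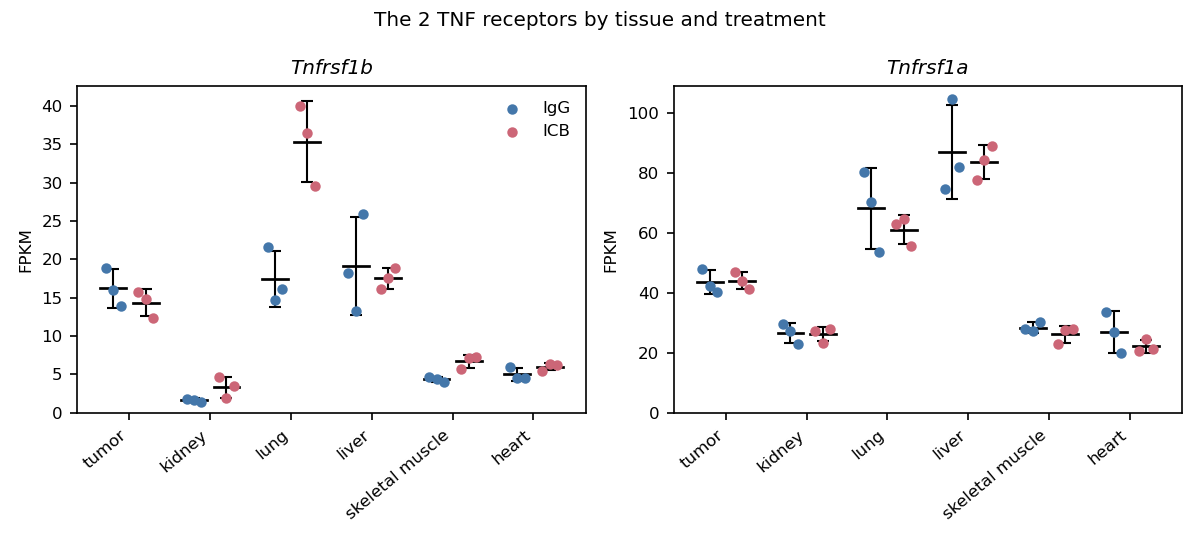
FPKM of Tnfrsf1b (TNFR2) and Tnfrsf1a (TNFR1) by tissue, with points for libraries, blue for IgG and red for ICB, and black lines for the mean ± SD of 3 libraries. The ICB points of Tnfrsf1b lie above the IgG points in kidney, lung and skeletal muscle, and those of Tnfrsf1a overlap the IgG points in every tissue.

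Macrophage genes moved with Tnfrsf1b in the organ average. Of 12 macrophage markers, 7 could be tested there, and all 7 were positive at an unadjusted p under 0.05, with a median of 0.68. Of these, 2 passed: Mpeg1 at 0.68 ± 0.13 (SE, limma adjusted p = 0.0189) and Csf1r, the receptor for the macrophage growth factor, at 0.65 ± 0.14 (SE, limma adjusted p = 0.0312). The summed macrophage markers ran from 153 to 171 FPKM with IgG and 221 to 273 with ICB in lung, from 55.9 to 60.3 and 67.3 to 135 in kidney, and from 99.4 to 236 and 159 to 426 in skeletal muscle. In liver the sums were 441 to 717 and 557 to 1601, where Tnfrsf1b was not higher. Kidney ICB replicate 2 had the lowest sum and the lowest Tnfrsf1b of the 3 kidney ICB libraries. Endothelial markers had a median difference of 0.21 over 5 tested, 3 of them positive at an unadjusted p under 0.05, beside 8.8% of all genes. Fibroblast markers had a median of 0.41 over 4 tested, 1 of them positive at that level. The 2 neutrophil markers tested had a median of -0.23, with 0 at that level. Red cell markers had a median of -1.26 over 5 tested, all 5 negative at that level. The part of these cell types in the Tnfrsf1b difference was not tested.

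**Figure D5:**
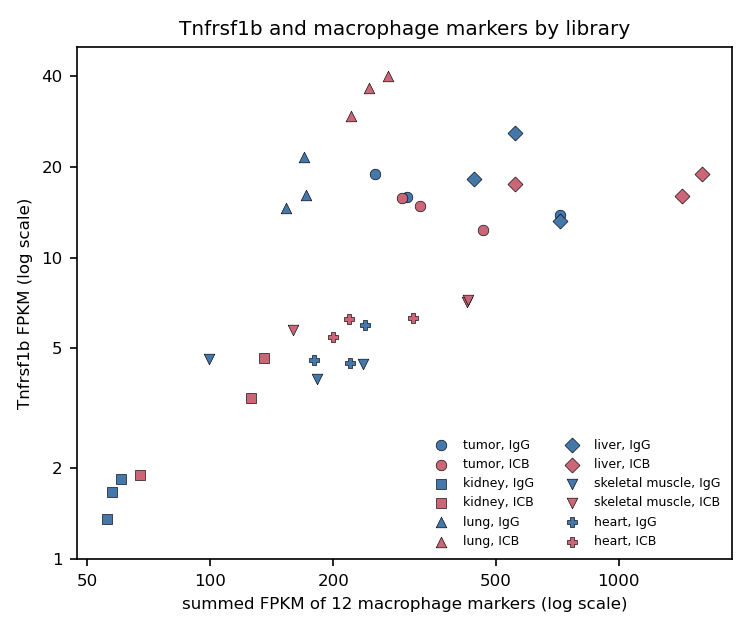
Tnfrsf1b FPKM (vertical, log scale) against the summed FPKM of 12 macrophage markers (horizontal, log scale) in the 36 libraries, with a symbol for each tissue and blue for IgG or red for ICB. Lung and kidney ICB libraries lie above and to the right of their IgG libraries, and the 2 liver ICB libraries with the largest marker sums (1425 and 1601) lie within the Tnfrsf1b range of the other liver libraries.

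None of the other 8 members tested in the organ average passed, and none had an unadjusted p under 0.05, beside 8.8% of all genes. The smallest p was that of Tnfrsf1a, at -0.11 ± 0.07 (SE, limma adjusted p = 0.703), followed by Tnfsf10 at 0.22 ± 0.14 (SE, limma adjusted p = 0.741). The ICB difference of Tnfrsf1a, the TNFR1 gene, lay between -0.24 and 0.02 on the log2 scale across the 6 tissues, with overlap in each, and that of Ltbr between -0.10 and 0.06. Fas read 25.6, 43.3 and 16.5 FPKM in lung with IgG and 22.6, 17.8 and 10.8 with ICB, and 1.60, 2.21 and 3.63 against 3.86, 2.11 and 5.002 in tumor, with overlap in both. In the other 4 tissues its difference lay between -0.20 and 0.10. In skeletal muscle Tnfrsf12a read 73.3, 78.8 and 24.98 FPKM against 25.2, 58.2 and 20.8, a difference of -0.73 ± 0.51 (SE). In tumor, kidney, liver and heart its difference was between -0.29 and 0.26, also with overlap.

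In tumor, Tnfrsf13c, the BAFF receptor of B cells, was the 1 tested member whose groups separated, at 2.81, 2.90 and 3.61 FPKM with IgG and 2.48, 1.41 and 2.499 with ICB (log2 difference -0.41 ± 0.18 SE, limma adjusted p = 0.707). Without ICB replicate 2, the library with skeletal muscle RNA, it was -0.23 (limma adjusted p = 0.996), and no member passed in that fit either. The 9 B and plasma cell markers summed to 10.9 to 14.1 FPKM with IgG and 9.70 to 11.2 with ICB in tumor, with 4 of 5 tested negative, and their part was not tested. Tnfrsf9 differed by -0.39 ± 0.33 and Tnfsf9 by -0.25 ± 0.18 (SE), each with overlap. Cd40 was at 2.62 ± 0.849 and 2.13 ± 0.288 FPKM, and Tnfrsf18 at 1.99 ± 0.393 and 1.67 ± 0.557 (SD, n = 3 each, IgG first). Tnf stood at 1.09 ± 0.259 and 1.14 ± 0.0946 FPKM. Of the 17 members under the filter in tumor, the OX40 ligand gene Tnfsf4 held 30, 40 and 47 reads with IgG and 22, 19 and 10 with ICB, and Lta held 33, 45 and 12 against 10, 10 and 5. Neither passed without the filter (limma adjusted p = 0.678 and 0.731). Groups of members under the filter separated for 5 of 28 in kidney (10.6% of all genes under the filter), 4 of 17 in tumor (9.89%), 4 of 25 in liver (7.17%), 2 of 12 in lung (8.6%), 1 of 25 in heart (7.63%) and 0 of 24 in skeletal muscle (7.62%). In kidney Ltb held 13, 11 and 11 reads against 27, 25 and 35 (limma adjusted p = 0.817 without the filter), and in liver Tnf held 2, 3 and 1 against 3, 6 and 22.

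In lung, Tnfrsf13c read 2.14, 1.18 and 1.60 FPKM with IgG and 2.62, 3.92 and 2.22 with ICB (0.56 ± 0.20 SE), so that the groups separated upward. There 9 of 9 B and plasma cell markers were positive, with a median of 0.54, and their sums were 59.9 to 147.5 and 105 to 152. Their part was not tested. Tnfrsf12a (Fn14) ran lower, at 18.2, 23.8 and 17.1 against 12.9, 16.5 and 10.9 FPKM (-0.52 ± 0.20 SE), and Tnfrsf11a, which encodes RANK, ran higher by 0.14 ± 0.11 with groups that just separate. Cd40, Tnfrsf4 and Tnfrsf18 differed in lung by 0.11 to 0.31, with overlap, and Tnfrsf18 by 0.04 in heart. In liver RANK read 0.603, 0.851 and 0.441 FPKM with IgG and 1.23, 1.01 and 1.69 with ICB (0.50 ± 0.19 SE), near the level of the filter. In skeletal muscle, 3 members had every ICB library below every IgG library. Tnfrsf14 (HVEM) read 3.46, 4.48 and 3.03 against 2.22, 2.55 and 2.67 FPKM. Tnfsf13os read 1.36, 1.37 and 1.71 against 0.557, 1.07 and 0.843, which is 12 to 32 reads a library, and Tnfrsf23 differed by -0.19 ± 0.15 (SE). Kidney had no tested member with separate groups besides Tnfrsf1b, and heart had none. All of these have limma adjusted p-values of 0.876 or more within their tissue.

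Whether the ICB difference varied between the 6 tissues was tested for the 30 members with an F-test in the fit of 36 libraries. No member passed, beside 0.0868% of all genes. Unadjusted p was under 0.05 for 3 of them, beside 6.2% of all genes: Tnfrsf1b (F = 5.05, limma adjusted p = 0.26), Tnfrsf13c (F = 4.99, limma adjusted p = 0.266) and Tnfrsf23 (F = 4.16, limma adjusted p = 0.425). The F-test takes all 6 tissues at once, and lung was not compared with tumor alone. So the opposite signs of Tnfrsf13c and of Tnfrsf1b in tumor and lung were not tested as a pair and are not shown to differ. One member passed in each of 2 alternative fits, Tnfsf4 without a filter (limma adjusted p = 0.0149) and Tnfrsf13c on the scale with equal totals (limma adjusted p = 0.0445).

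The signaling machinery downstream of these receptors was examined with a list of 45 measured genes of adaptors, kinases, NF-kB subunits, inhibitors and shedding proteases. None passed the limma test in any tissue or limma-voom on the recovered reads. None did in the organ average (0 of 37 tested) or between tissues (0 of 45). In the organ average 3 had an unadjusted p under 0.05, beside 8.8% of all genes. The smallest p in the organ average belonged to Adam17, the protease that sheds TNF and its receptors, at 0.18 ± 0.05 (SE, limma adjusted p = 0.139), and the next to the NF-kB subunit gene Nfkb2 at 0.21 ± 0.07 (SE, limma adjusted p = 0.225).

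In tumor 34 of the 45 differences were negative, with a median of -0.12 beside -0.01 for all genes. At an unadjusted p under 0.05 there were 3, beside 6.87% of all genes. These were Tnip1, which restrains NF-kB signaling together with the deubiquitinase A20, at -0.42 ± 0.13, the adaptor gene Traf1 at -0.29 ± 0.12 and Tnip2 at -0.29 ± 0.12 (SE). On the positive side the kinase gene Ripk1 was first at 0.17 ± 0.09, then Tab2 at 0.21 and Rnf31 at 0.17. In the same tumors the NK cell markers summed to 26.5 to 57.4 FPKM with IgG and 11.2 to 25.3 with ICB. Of B and plasma cell markers, 4 of 5 tested were negative. All tested T cell (3), dendritic cell (3) and fibroblast (6) markers were positive. The part of these cell types was not tested. In lung 33 of 45 were positive, with a median of 0.12. The first there were the NF-kB subunit gene Rel (2.18 to 3.43 FPKM, 0.49 ± 0.14 SE), the necroptosis kinase gene Ripk3 (4.46 to 6.63 FPKM, 0.48 ± 0.14 SE) and Tnip1 (0.38 ± 0.13 SE), while Tnip2 was at -0.20, Traf1 at -0.24 and Chuk at -0.15. Markers of several leukocytes moved with them in lung. For macrophages 11 of 11 markers were positive with a median of 0.46, and for T cells 10 of 10 with 0.43. For B and plasma cells 9 of 9 were positive with 0.54. Neutrophil markers went the other way, with 5 of 6 negative and a median of -0.12. Red cell markers were negative in 6 of 6, with a median of -2.41. The 6 lung markers were all negative as well, with a median of -0.29. Their sums were 33830 to 54760 FPKM with IgG and 20020 to 31000 with ICB. The part of these cells was not tested. In liver Nfkbia, the NF-kB inhibitor that NF-kB itself induces, stood at 0.48 ± 0.18, Nfkb2 at 0.42 ± 0.17 and Ripk3 at 0.88 ± 0.37 (SE), and Ikbkg, Cflar and Traf3 had the smallest p among the negative ones. In kidney Nfkbia was first at 0.37 ± 0.11, followed by Nfkb2 and Ikbkb, with Birc2, Casp8 and Tnip2 on the negative side. In skeletal muscle the first were Adam17 at 0.31 ± 0.15, Cflar and Nfkb2, and Otulin at -0.68 ± 0.30, Tank and Nfkbib. In heart they were Otulin at 0.26 ± 0.08, Traf6 and Map3k5, and Traf3ip2 at -0.25 ± 0.13, Casp8 and Mlkl.

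Genes that NF-kB switches on were followed with a second list of 24 measured targets, some of which are also in the first. None passed in any tissue by limma or limma-voom. At an unadjusted p under 0.05 there were 3 of 21 in tumor (6.87% of all genes) and 3 of 15 in liver (3.37%). Lung had 2 of 18 (4.35%), kidney 1 of 11 (3.71%), skeletal muscle 0 of 9 (5.33%) and heart 0 of 11 (4.54%). In liver 14 of the 15 tested were positive, with a median of 0.25 beside -0.02 for all genes. The cytokine gene Il1b had the smallest p there, with mean levels of 0.780 FPKM under IgG and 2.80 under ICB (1.10 ± 0.18 SE, limma adjusted p = 0.999). The liver macrophage sums given above were higher in 2 of the 3 ICB libraries than in any IgG library, and their part was not tested. In tumor the interferon-responsive chemokine gene Cxcl10 stood at a mean of 41.55 FPKM with IgG and 83.8 with ICB (0.97 ± 0.21 SE, limma adjusted p = 0.692), while 14 of 21 targets were negative.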

How the data were processed

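Values are FPKM that the authors deposited for 18781 rows named by gene symbol, 1 column for each of the 36 libraries. Per the labels, 1 ug of total RNA from flash-frozen tissue went into TruSeq libraries. Per the submitters' processing notes, the tools were HISAT2 2.1.0, an aligner, and edgeR, and the build was mm10. The read counter, gene annotation and strandedness were not given in the sources used here.

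From the FPKM steps, whole reads were recovered for all 18781 rows (tolerance 0.001 reads), giving 19005189 to 25512980 reads per library, on a scale set by GENCODE M21 exon lengths. The 15 rows without a name (0.0834% to 0.374% of reads) and 3 symbols on 2 rows each were left out. Tests within a tissue used limma 3.58.1 (mean-variance trend, two-sided) in R 4.3.3 on log2(FPKM + 1), with 3 libraries of each treatment, for genes with at least 1 FPKM in at least 3 of the 6 libraries. The tests on the organ average, between tissues and of tissue levels came from 1 fit of all 36 libraries with 12 group means. P-values were adjusted by Benjamini-Hochberg over all genes tested, with a threshold of 0.05. Differences are on the log2(FPKM + 1) scale, which understates the change of low genes.

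Alternatives were a pseudocount of 0.1, no filter, 2 other scalings, 1 fit of all 36 libraries, limma-voom 3.58.1 on the recovered reads, leaving out each library, IgG libraries only, and a replicate block. Leaving out each organ, using only the 30 organ libraries, and following Tnfrsf1b through every alternative were chosen after seeing the data. For each tissue the text names members that pass, members whose 2 groups do not overlap (up to 5 each way), and Tnf, Tnfrsf1a, Tnfrsf1b, Fas, Ltbr, Cd40, Tnfrsf12a, Tnfrsf4, Tnfrsf9 and Tnfrsf18 where tested. Members under the filter are given by reads, and pathway genes by the 3 smallest p-values in each direction. Other members and target genes named for ICB, and the promoters shown, were chosen after the values were seen. The members and all gene lists were chosen with earlier results of these data known. The fits were tested on simulated data. Positions come from GENCODE M21 and promoters from RefSeq (GRCm38.p6), matched by symbol for 29 of 38 members. Figures were drawn with matplotlib 3.10.9 in Python 3.11.15.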

Additional observations from a re-analysis of the deposited data

How the results depend on the processing

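Over 38 results, 1090 of 1113 alternative values were classed as the same. For a count of members, this means an equal or similar count, and 17 counts moved further. For the difference of a single member, it means the same direction and side of the threshold. Of those differences 5 lost the call, 1 gained it and none changed sign. In single tissues 0 members passed under every alternative except the 1 fit of all 36 libraries, where 1 member, Tnfrsf1b in lung, passed (0.98, limma adjusted p = 0.014, with 56 genes passing in place of 0). The organ average called 1 member of 22 genes. It called 0 members with kidney (13 genes), lung (10 genes) or skeletal muscle (3 genes) left out, and 0 to 1 when single libraries were left out (2 to 118 genes). Tnfrsf1b was at 0.338, 0.416 and 0.453 without lung, kidney or skeletal muscle, at 0.603 and 0.527 without liver or heart, and at 0.422 to 0.52 without single libraries (adjusted p = 0.00303 to 0.0501). The calls of all genes in the average were 68 without a filter, 92 on the scale with equal totals, 50 without heart and 1 without liver, and the cause was not tested.

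The numbers in the sample titles recur across tissues, and the labels do not say that they mark animals. Libraries with the same number in different tissues deviated together weakly: the median correlation was 0.15 over 56 pairs (-0.288 to 0.568), 39 of them over 0.1, against -0.039 over 214 pairs with different numbers. With the number as a replicate block the average called 0 members and 2 genes, with Tnfrsf1b at 0.462 (adjusted p = 0.0759), and the cause was not tested. The block changed no other call on members.

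Between tissues, 1 member passed without a filter and 1 on the scale with equal totals (45 and 22 genes in place of 14). Members that differed in heart fell from 26 to 15 under limma-voom and to 17 with IgG libraries only. On the scale with equal totals, 5 members were lower in tumor (29.07% of all genes) and 0 in lung (21.99%). On that scale 2 were higher in liver (13.09%) and 1 in skeletal muscle (17.33%). With IgG libraries only, where 29 members were tested in place of 30, 1 was lower in lung (39.58% of all genes). In heart 13 were lower under limma-voom (41.42% of all genes) and 15 with IgG libraries only (41.06%), in place of 24 (50.15%). The share of all genes lower in heart thus fell as well. Members with few reads limit what these libraries can show, since 8 never reached the filter. Normalization factors differ between tissues, so levels of members in different tissues rest on the authors' scaling.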
